A study of Mus musculus with 24 samples.

Results

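The 9 genes described here encode enzymes and regulators of glycogen synthesis and breakdown. They were listed by name, for their function and not by a threshold on measured values, and all 9 were found among the 39056 genes counted in the ileum of HOIL1-deficient mice. RNA was sequenced from live CD45+ (hematopoietic) cells and from live CD45- cells, a mixture of epithelium, endothelium and stroma. The cells were sorted from the ileum, with Peyer's patches removed, of C57BL/6 mice aged 9 to 10.3 weeks. Before sorting, only part of the separated epithelial cells was combined with the cells of the underlying lamina propria. The share of epithelium in a library therefore depends partly on this preparation. All mice were homozygous for a floxed Il4ra allele, the gene for a receptor subunit of IL-4 and IL-13. The 4 genotypes combined Hoil1+/+ or Hoil1-/- with either no Cre (Il4ra f/f) or VillinCre (Il4ra ΔIEC), a Cre recombinase active in intestinal epithelial cells that deletes Il4ra there. The Hoil1-/- allele is partial, because these mice still make the N-terminal domain of HOIL1 at a low level. Each genotype and fraction had 3 libraries, numbered 1 to 24 as in the sample titles. The study's sample list held 21 of the 24 libraries, and the values and tests below used these 21 unless stated. The paper removed 3 outlier samples, found by principal component analysis. All 3 libraries outside the list were Hoil1-/-, which left 9 Hoil1-/- and 12 Hoil1+/+ libraries. No label tied a CD45+ library to a CD45- library of the same mouse.

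Glycogen is a branched store of glucose. Glycogenin (Gyg) starts the chain, glycogen synthase (Gys1) lengthens it and the branching enzyme (Gbe1) adds branches. Laforin (Epm2a), a phosphatase that acts on glycogen, and malin (Nhlrc1), a ubiquitin ligase that binds laforin, keep the particle soluble, and loss of either causes Lafora disease. Glycogen phosphorylase releases glucose-1-phosphate in the cytosol and has liver (Pygl), muscle (Pygm) and brain (Pygb) isozymes. Acid alpha-glucosidase (Gaa) degrades glycogen in lysosomes. People who lack HOIL1, a subunit of the linear ubiquitin chain assembly complex, store poorly branched glycogen in muscle.

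The CD45+ libraries held 14.9 to 76.8 M counts (M, 1000000) and the CD45- libraries 6.03 to 68.3 M counts, and a count of 3 corresponded to at most 0.416 counts per M counts (CPM). Rbck1, the gene for HOIL1, ranged from 90.5 to 158 CPM over 6 Hoil1+/+ and from 5.38 to 15.9 CPM over 4 Hoil1-/- libraries of CD45+ cells. In CD45- cells the ranges were 73.3 to 110 CPM and 2.78 to 7.29 CPM. Summed hematopoietic markers (4 genes) were at 2597 to 3249 CPM in CD45+ libraries and at 0.950 to 33.0 CPM in CD45- libraries. Summed epithelial markers (8 genes) were at 60.3 to 446 CPM and 1216 to 13123 CPM, respectively, so the CD45- libraries varied widely in how much epithelial RNA they held. All of these are bulk RNA, in which fewer cells of a type and less RNA per cell cannot be told apart. Of the 3 libraries outside the sample list, the CD45- library 23 (Hoil1-/- Il4ra f/f) had 0 counts for Gys1, Gbe1 and Nhlrc1, and the highest Gyg of all CD45- libraries.

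All 9 genes were detected in both fractions, and the lysosomal enzyme Gaa and the brain isozyme Pygb had the highest levels per length. Per kilobase of exon, mean CPM in the 10 CD45+ libraries was 18.4 ± 3.57 (SD) for Gaa, 16.1 ± 3.13 for Pygb and 14.2 ± 2.44 for Gyg. Neighbours in this group of 3 exchanged places, since Gaa was above Pygb in 7 of 10 libraries and Pygb above Gyg in 6. After them came Pygl at 6.73 ± 1.62 CPM per kilobase, Gys1 at 4.09 ± 1.16 and Gbe1 at 1.85 ± 0.482. Gyg was above Pygl, and Gys1 above Gbe1, in all 10 CD45+ libraries. Pygm at 1.09 ± 0.765, Nhlrc1 at 0.666 ± 0.381 and Epm2a at 0.602 ± 0.545 CPM per kilobase were the lowest, and their spreads overlapped.

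In the 11 CD45- libraries the order began the same way, with Gaa at 15.6 ± 6.47 CPM per kilobase, Pygb at 11.7 ± 2.39 and Gyg at 7.82 ± 3.10. Pygb was above Gyg in 11 of 11 libraries. The muscle isozyme Pygm came next at 6.40 ± 4.32 CPM per kilobase, and was above Gys1 (3.02 ± 0.873) in 7 of 11 libraries. The remaining 4, Pygl (1.68 ± 1.94), Nhlrc1 (1.67 ± 0.878), Epm2a (1.32 ± 0.531) and Gbe1 (1.16 ± 0.855), did not differ from their neighbours beyond their spread.

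**Figure D1:**
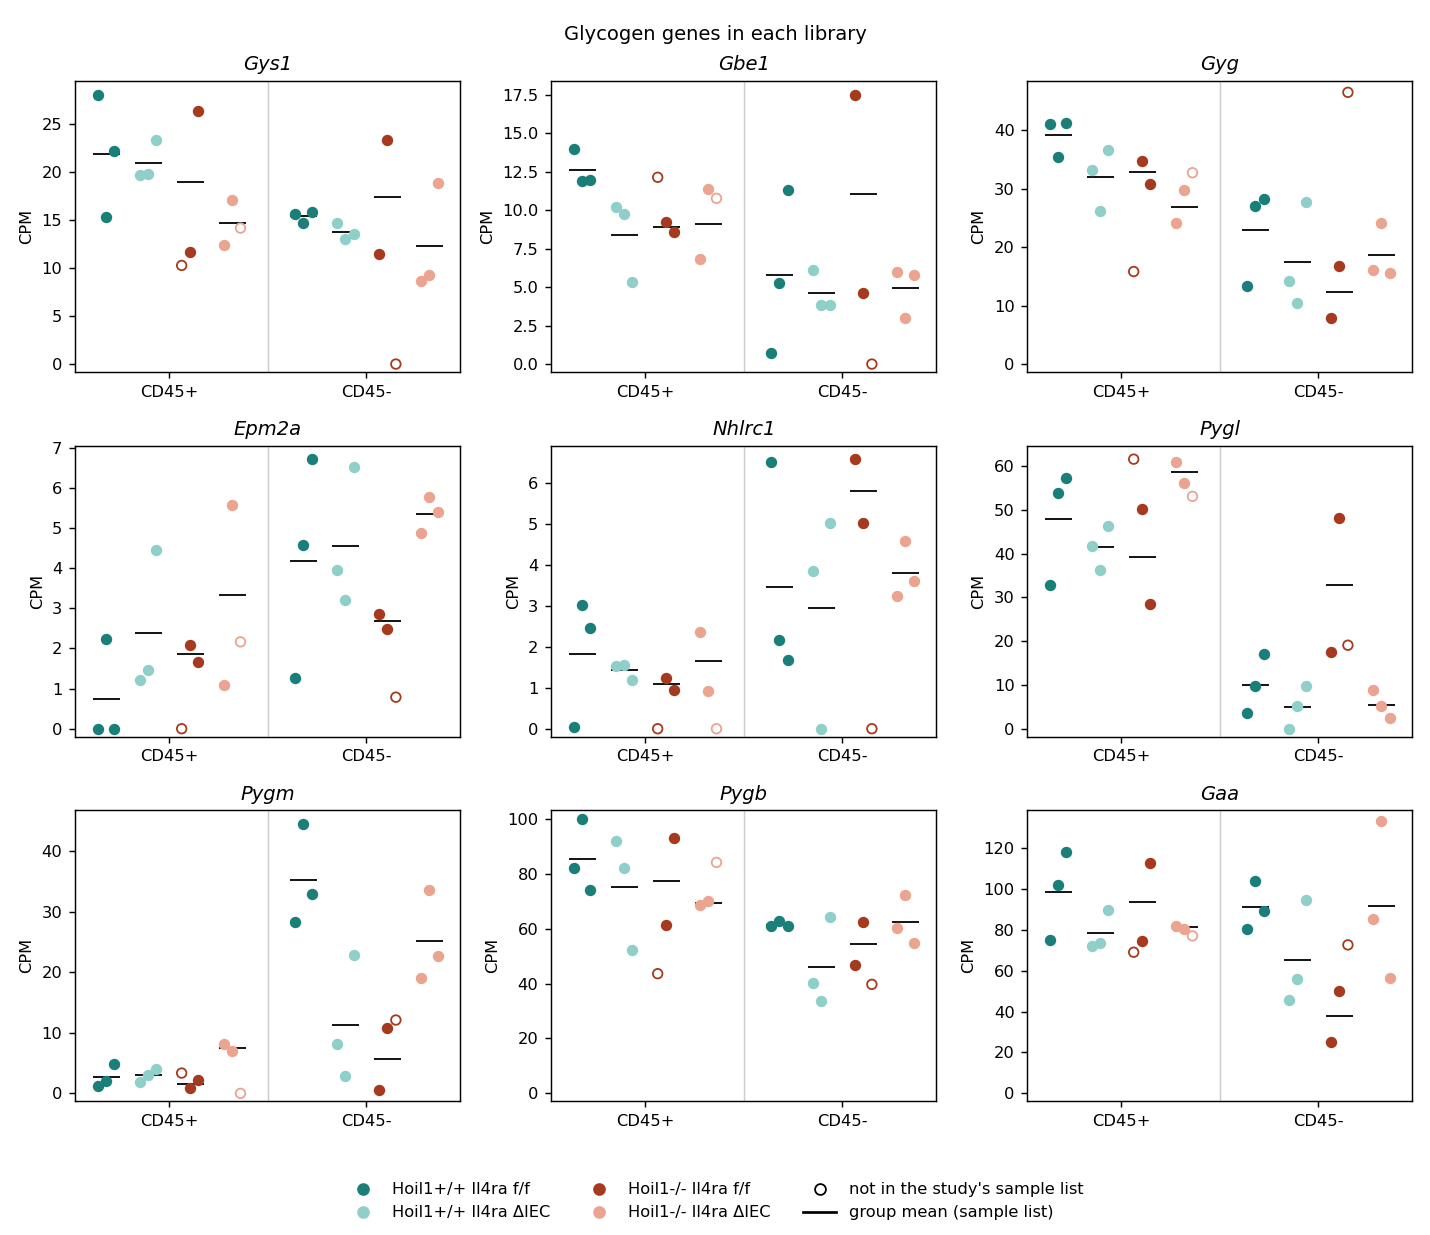
CPM of each of the 9 genes (y axis, linear, with its own scale in each panel) in each library, CD45+ on the left and CD45- on the right of a panel, coloured by genotype. Bars are group means over the sample list and open circles are the 3 libraries outside it. Pygl sits high in CD45+ and Pygm in CD45- libraries, and the genotypes overlap for most genes.

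The fractions were compared first, since this shows which isozymes the hematopoietic and non-hematopoietic cells of the ileum express. Of the 9 genes, 4 differed between CD45- and CD45+ cells when averaged over the 4 genotypes, and 49.6% of all 18778 genes tested differed at the same threshold (adjusted p under 0.05), so the count is near the background. Pygm was higher in CD45- cells, and Pygl, Gyg and Pygb were lower. The median log2 fold change of the 9 genes (CD45- over CD45+) was -0.38, beside -0.03 for all genes tested. For every one of the 9 genes the values of the fractions overlapped.

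The muscle isozyme Pygm (ENSMUSG00000032648.14, GRCm38 chr19:6384399-6398459, + strand) had the largest rise. In CD45+ libraries its lowest, median and highest levels were 0.809, 2.65 and 8.15 CPM, and in CD45- libraries they were 0.555, 22.7 and 44.6 CPM. All CD45- libraries except 1 and 10 were therefore above the highest CD45+ library. The log2 fold change was 2.33 (SE 0.47, adjusted p = 0.000577), and it was 1.48 (adjusted p = 0.00647) without library 2 (CD45-, Hoil1-/- Il4ra f/f). With library 2 left out, library 1, at 7 counts of Pygm, was the only one of its group, and it was assumed to vary like the libraries of the other groups.

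The liver isozyme Pygl (ENSMUSG00000021069.16, GRCm38 chr12:70190811-70231488, - strand) had the largest fall. Its lowest, median and highest levels were 28.5, 48.3 and 61.0 CPM in CD45+ libraries and 0, 8.77 and 48.3 CPM in CD45- libraries. The CD45- values overlapped those of CD45+ cells only through library 2 (Hoil1-/- Il4ra f/f), at 48.3 CPM. The next highest was library 1 of the same group, at 17.5 CPM. The log2 fold change was -2.23 (SE 0.48, adjusted p = 0.000968).

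Glycogenin Gyg (ENSMUSG00000019528.18, GRCm38 chr3:20122084-20155317, - strand) had lowest, median and highest levels of 24.1, 33.98 and 41.3 CPM in CD45+ libraries and 7.85, 16.2 and 28.3 CPM in CD45- libraries. Its log2 fold change was -0.90 (SE 0.21, adjusted p = 0.00164). Pygb (ENSMUSG00000033059.7, GRCm38 chr2:150786735-150831758, + strand) had levels of 52.2, 78.1 and 100.0 CPM in CD45+ libraries and 33.8, 61.0 and 72.4 CPM in CD45- libraries. The Pygb difference was small, at -0.46 (SE 0.15, adjusted p = 0.0159), and did not pass without library 1 (CD45-, Hoil1-/- Il4ra f/f; -0.41, adjusted p = 0.0545) or without library 15 (CD45+, Hoil1-/- Il4ra f/f; -0.40, adjusted p = 0.056). With genotype and age as a block, Pygb did not pass (-0.48, adjusted p = 0.0595).

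The other 5 genes did not pass. Gaa (ENSMUSG00000025579.14, GRCm38 chr11:119267887-119285454, + strand) was at 88.1 ± 17.1 CPM (SD, n = 10) in CD45+ and 74.5 ± 30.9 CPM (n = 11) in CD45- cells, with a log2 fold change of -0.38 (95% confidence interval -0.78 to 0.02). Gys1 (ENSMUSG00000003865.16, GRCm38 chr7:45434844-45456619, + strand) was at 19.6 ± 5.56 and 14.5 ± 4.18 CPM, a log2 fold change of -0.38 (-0.81 to 0.06). Its exons share 310 bases, 6.47% of their length, with those of Ruvbl2 on the other strand, so its counts depend on how strand was used in counting, which is not given in the sources used here. Gbe1 (ENSMUSG00000022707.16, GRCm38 chr16:70313949-70569716, + strand) was at 9.90 ± 2.58 and 6.19 ± 4.58 CPM, a log2 fold change of -0.64 (-1.42 to 0.14).

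The Lafora genes had few counts, and their fold changes were above 0 with wide intervals. Epm2a (ENSMUSG00000055493.4, GRCm38 chr10:11343404-11459644, + strand) was at 1.98 ± 1.79 CPM in CD45+ and 4.33 ± 1.75 CPM in CD45- cells, a log2 fold change of 1.15 (95% confidence interval -0.46 to 2.76). It had 0 counts in the CD45+ Hoil1+/+ Il4ra f/f libraries 12 and 19. Nhlrc1 (ENSMUSG00000044231.2, GRCm38 chr13:47012557-47014850, - strand), which has a single exon, was at 1.53 ± 0.873 and 3.84 ± 2.02 CPM, a log2 fold change of 1.39 (-0.05 to 2.83). Its adjusted p was 0.104, and it was 0.0243 with DESeq2 and 0.0439 with the likelihood ratio test of edgeR. Leaving out a single library brought each of these 5 genes past the threshold in some case. The libraries were 5 for Gys1 (adjusted p = 0.0449), 8 for Gbe1 (0.0489), 10 for Nhlrc1 (0.0277), 18 for Epm2a (0.000208), and 2, 4, 11 or 12 for Gaa (0.0237 to 0.0442). Without library 18, both remaining CD45+ Hoil1+/+ Il4ra f/f libraries had 0 counts of Epm2a. With genotype and age as a block, Gys1 (-0.66, adjusted p = 0.0191) and Epm2a (3.26, adjusted p = 0.00188) passed.

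**Figure D2:**
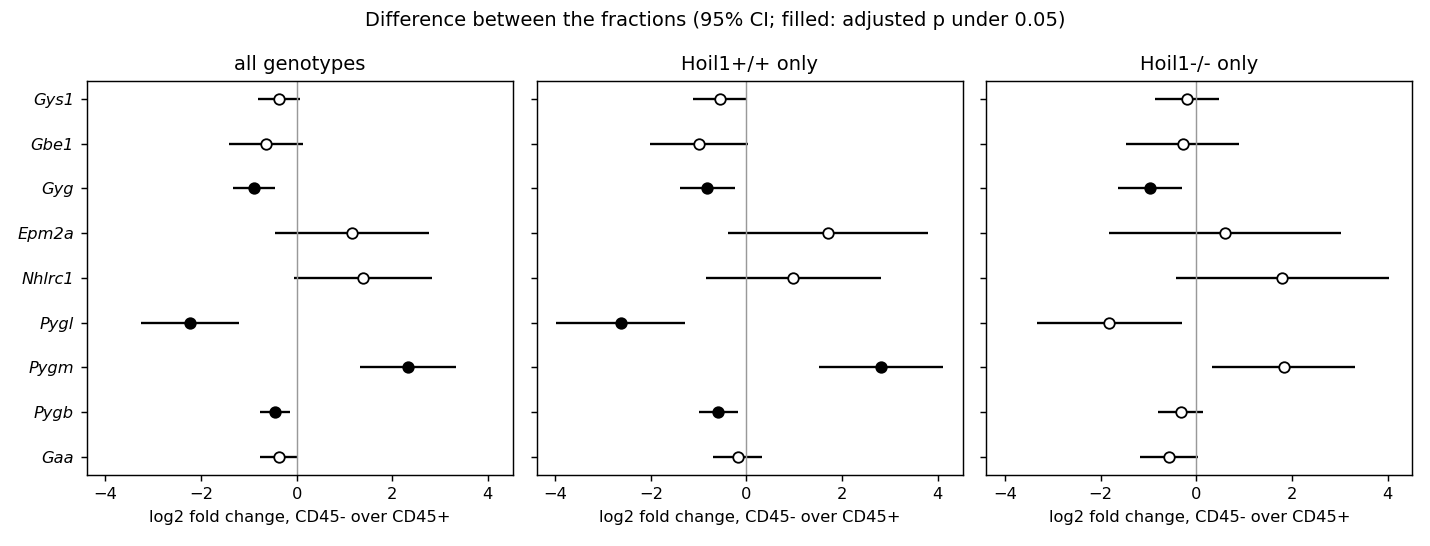
Log2 fold change of CD45- over CD45+ cells for each gene (x axis) with its 95% confidence interval, averaged over all genotypes, over the Hoil1+/+ genotypes and over the Hoil1-/- genotypes. Filled points passed an adjusted p of 0.05. Pygm lies to the right and Pygl to the left of 0 in all 3 panels.

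Within Hoil1+/+ mice the same 4 genes passed (background 42.4% of genes), and within Hoil1-/- mice only Gyg passed (background 36%). The log2 fold change of Pygm was 2.82 (SE 0.61) in Hoil1+/+ and 1.83 (SE 0.71, adjusted p = 0.0532) in Hoil1-/- mice, and that of Pygl was -2.63 (SE 0.64) and -1.83 (SE 0.72, adjusted p = 0.0571). Gyg was lower in CD45- cells of both, with log2 fold changes of -0.82 (SE 0.27) and -0.97 (SE 0.31). The difference of these differences was itself tested. None of the 9 genes passed it (background 0.0266%), and none had an unadjusted p under 0.05, beside 5.48% of all genes. DESeq2 called none of the 9 either. For Pygm the difference between the genotypes in log2 fold change was -0.99, with a 95% confidence interval from -2.87 to 0.88.

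The phosphorylase isozymes were also set against each other within a library, as shares of their summed CPM per kilobase. Such shares do not depend on library scaling, but they do depend on the exon lengths used. These were 6895 bases for Pygl, 3218 for Pygm and 4809 for Pygb. On average Pygb made up most of the sum in both fractions, with 67.2% ± 8.92 (SD, n = 10) in CD45+ and 62.5% ± 11.5 (n = 11) in CD45- cells. Its mean CPM, without division by length, was also the highest of the isozymes, at 77.6 in CD45+ and 56.3 in CD45- cells. That of Pygl was 46.4 and 11.6, and that of Pygm 3.52 and 20.6. In the CD45- Hoil1+/+ Il4ra f/f library 7 the Pygb share was 46.1%, below the 48.9% of Pygm, and in library 8 of that group it was 49.9%. Pygl held 28.3% ± 6.85 of the sum in CD45+ and 8.52% ± 8.99 in CD45- cells, whereas Pygm held 4.55% ± 3.06 and 29.0% ± 14.8, respectively. In CD45+ libraries the Pygm share ran from 1.24% to 9.86%, and in CD45- libraries from 1.39% to 48.9%. Both CD45- Hoil1-/- Il4ra f/f libraries of the sample list had more Pygl than Pygm per kilobase, unlike the other 9 CD45- libraries of the list. The shares were 20.4% and 1.39% in library 1 and 30.0% and 14.3% in library 2. Library 23 of that group, outside the list, had less Pygl (2.77 CPM per kilobase) than Pygm (3.77). Some of these orders turned without division by length. Libraries 10 and 23 then had more Pygl (5.12 and 19.1 CPM) than Pygm (2.94 and 12.1 CPM). In library 7 Pygb (62.7 CPM) was then above Pygm (44.6 CPM).

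The sequences before the RefSeq starts of Pygm and Pygl, the isozymes that moved in opposite directions, are shown because they differ in base composition. The RefSeq start of Pygl lies inside the GENCODE span given above, so its sequence is upstream of the RefSeq start only. They are RefSeq sequences (GRCm38.p6), read 5′ to 3′ on the gene's strand from at most 250 to 11 bases before the annotated start. Capitals mark every match, on either strand, to 3 motifs, namely a TATA box (TATAAA), a GC box (GGGCGG) and an E-box (CANNTG). No match overlaps another.
Pygm, chr19:6384158-6384397, + strand: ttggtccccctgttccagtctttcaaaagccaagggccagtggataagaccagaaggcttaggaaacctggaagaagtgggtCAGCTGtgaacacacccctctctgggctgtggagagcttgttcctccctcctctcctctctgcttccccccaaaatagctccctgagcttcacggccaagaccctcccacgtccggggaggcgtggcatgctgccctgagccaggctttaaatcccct
Pygl, chr12:70227694-70227840, - strand: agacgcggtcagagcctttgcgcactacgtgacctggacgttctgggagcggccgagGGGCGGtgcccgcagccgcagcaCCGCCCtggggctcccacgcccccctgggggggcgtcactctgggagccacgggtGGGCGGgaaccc
The Pygl stretch is shorter because the bases further upstream lie in an exon of F730035M05Rik on the other strand. Over the whole window of 240 bases, Pygl held 3 GC boxes and no E-box, and Pygm held 1 E-box, 163 to 168 bases before the start, and no GC box. GC content was 68.8% for Pygl and 57.9% for Pygm, beside a median of 52.1% over 32817 promoters, and the number of CpG dinucleotides was 19 and 4, beside a median of 5. A GC box occurred in 31.3%, an E-box in 65.0% and a TATA box in 12.1% of those promoters. None of the 9 genes had a TATA box match in this window.

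The main question for these genes was whether their expression changed with HOIL1 deficiency. In CD45+ cells none of the 9 passed for a Hoil1 effect taken over both Il4ra genotypes (background 0.00587% of 17029 genes), and none had an unadjusted p under 0.05, beside 5.85% of all genes. DESeq2 called none of the 8 it could test. The Hoil1+/+ and Hoil1-/- values overlapped for all 9 genes. In Hoil1+/+ mice Gaa was at 74.8, 102 and 118 CPM with Il4ra f/f and at 72.1, 73.7 and 89.8 CPM with Il4ra ΔIEC. In Hoil1-/- mice it was at 74.8 and 113 CPM with Il4ra f/f and at 82.1 and 80.5 CPM with Il4ra ΔIEC. Its log2 fold change (Hoil1-/- over Hoil1+/+) was -0.03, with a 95% confidence interval from -0.43 to 0.38. The intervals were similarly narrow for Pygb (-0.61 to 0.31), Gyg (-0.62 to 0.08) and Pygl (-0.39 to 0.57). They were wide for Epm2a (-2.21 to 3.96), Nhlrc1 (-2.49 to 1.91) and Pygm (-1.002 to 1.46). Gys1, at -0.38 (-0.98 to 0.22), and Gbe1, at -0.22 (-0.84 to 0.40), lay between. Within Il4ra f/f, within Il4ra ΔIEC and for the interaction of both alleles, none of the 9 passed either (backgrounds 0%, 0% and 0%) and none had an unadjusted p under 0.05 (5.27%, 6.08% and 7.01% of all genes).

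In CD45- cells the result for the average was the same. None of the 9 genes passed (background 0.0182% of 16453 genes), none had an unadjusted p under 0.05 (5.28% of all genes), DESeq2 called none, and the Hoil1 genotypes overlapped for all 9. The log2 fold changes ran from -0.75 (SE 0.63) for Pygm to 0.92 (SE 0.81) for Pygl, and that of Pygm ran from -2.40 (without library 2) to -0.24 (without library 11) with 1 library left out. The intervals were narrowest for Pygb (-0.31 to 0.58), Gaa (-1.02 to 0.23) and Gys1 (-0.67 to 0.70). Gys1 was at 13.04 to 15.8 CPM over the 6 Hoil1+/+ libraries. It spread from 8.64 to 23.4 CPM over the 5 Hoil1-/- libraries.

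**Figure D3:**
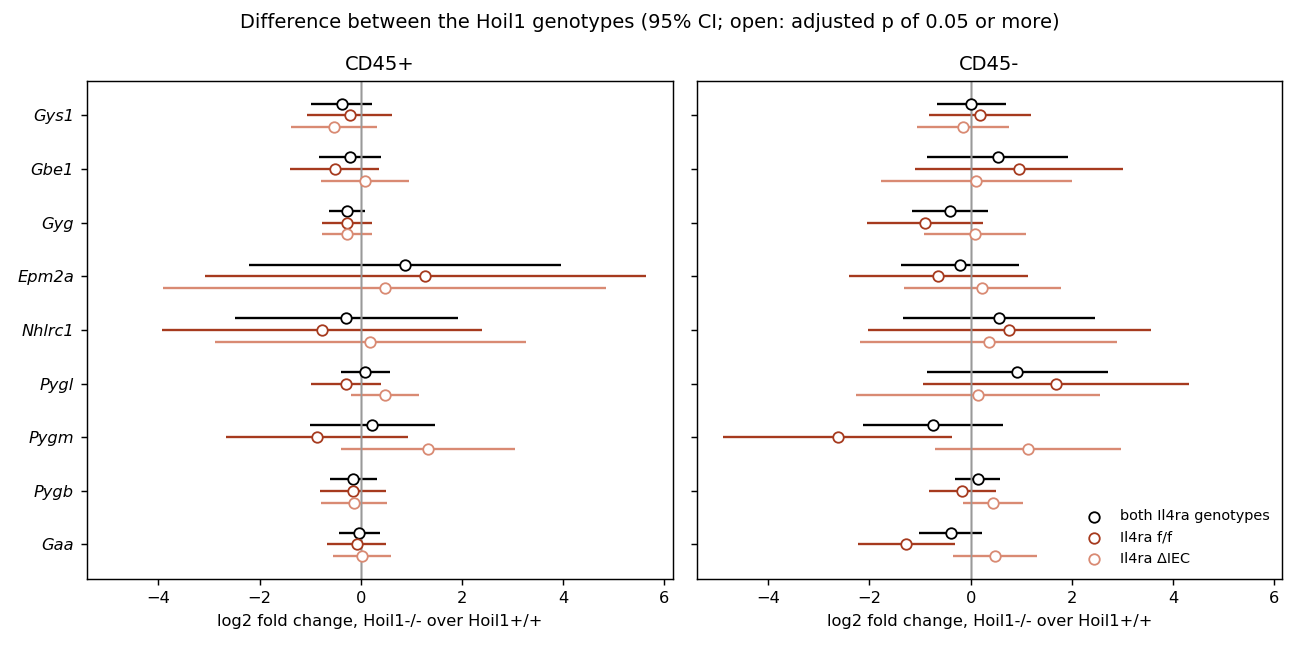
Log2 fold change of Hoil1-/- over Hoil1+/+ for each gene (x axis) with its 95% confidence interval, in CD45+ (left) and CD45- (right) cells, for both Il4ra genotypes together and for each alone. No point passed an adjusted p of 0.05. In CD45- cells the intervals for Pygm and Gaa in Il4ra f/f mice lie below 0.

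Within Il4ra f/f mice, Pygm and Gaa were lower in the CD45- Hoil1-/- libraries at an unadjusted p under 0.05, but neither passed adjustment (background 0.0365%), and 13.1% of all genes reached that unadjusted p. Pygm was at 28.3, 44.6 and 33.0 CPM in the Hoil1+/+ libraries 6, 7 and 8, and at 0.555 and 10.8 CPM in libraries 1 and 2, which were Hoil1-/-. Gaa was at 80.2, 104 and 89.1 CPM and at 25.3 and 50.1 CPM in the same libraries. The groups did not overlap for these genes and for Pygl, which was higher in Hoil1-/-, and these 3 of the 9 stand beside 34.1% of all genes tested. The log2 fold change was -2.63 (SE 1.03, unadjusted p = 0.0265, adjusted p = 0.361) for Pygm and -1.27 (SE 0.44, unadjusted p = 0.0142, adjusted p = 0.347) for Gaa. Library 23, the third of the Hoil1-/- group and outside the sample list, was at 12.1 CPM of Pygm and 72.7 CPM of Gaa, and with it the adjusted p rose to 0.539 and 0.558. Without library 2, Pygm alone passed (log2 fold change -5.94, adjusted p = 0.0363), on library 1 as the only one of its group, and without library 1 it was -1.73 (adjusted p = 0.764).

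In Il4ra ΔIEC mice both genes had values in the other direction that did not pass. Pygm ranged from 2.94 to 22.9 CPM over libraries 9, 10 and 11 (Hoil1+/+) and from 19.1 to 33.6 CPM over libraries 3, 4 and 5 (Hoil1-/-), with a log2 fold change of 1.13 (95% confidence interval -0.71 to 2.97). Gaa was at 45.7 to 94.5 CPM and at 56.4 to 133 CPM, with a log2 fold change of 0.48 (-0.35 to 1.302). None of the 9 genes passed there (background 0.00608%; 7.66% of all genes at an unadjusted p under 0.05, and 0 of the 9). The interaction, which tests whether the Hoil1 effect differed between the Il4ra genotypes, was 3.76 (SE 1.31, unadjusted p = 0.0154, adjusted p = 0.174) for Pygm and 1.75 (SE 0.57, unadjusted p = 0.011, adjusted p = 0.161) for Gaa. No gene of all 16453 passed this test (background 0%), and 20.7% had an unadjusted p under 0.05. DESeq2 called both (adjusted p = 0.0386 and 0.0491), as it did 9.78% of the 14985 genes it tested, and edgeR's likelihood ratio test called neither (0.0525 and 0.0743). Without library 2, Pygm passed (0.0238), and without library 11, Gaa passed (0.0489).

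Levels of Pygm and Gaa moved with the cell types of the CD45- libraries. Across the 11 libraries, log2(CPM + 1) of Pygm rose with the summed level of 5 smooth muscle and pericyte markers (Pearson r = 0.94, permutation p = 6e-05, adjusted p = 0.00216; Spearman rho = 0.93, permutation p = 0.00015, adjusted p = 0.0027). The r was 0.87 without the 2 libraries farthest from the median of the marker sum. Gaa fell as the summed epithelial markers rose (r = -0.90, permutation p = 0.00025, adjusted p = 0.0045; rho = -0.95, permutation p = 6e-05, adjusted p = 0.00216), with r = -0.84 without the 2 farthest libraries. These are from 36 relations of the 9 genes with 4 marker lists, chosen after the values were seen, and 8 of the 36 passed by both coefficients. The share of all genes with such relations was not computed, so this count has no background beside it. Gaa passed with all 4 lists, rising with smooth muscle and pericyte (r = 0.87), blood endothelium (0.87) and fibroblast markers (0.71). Pygm passed also with epithelium (r = -0.76), and Gyg with blood endothelium (0.82) and fibroblasts (0.78). Each of these 3 genes thus passed with more than 1 list. The permutations exchanged libraries across genotypes, so differences between genotypes also enter these p-values. Pygl was related to none of the 4 lists (r from -0.07 to 0.12). In the 10 CD45+ libraries, 45 relations with 5 immune marker lists gave no adjusted p below 0.406.

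The marker sums differed between the genotypes. In Il4ra f/f mice, smooth muscle and pericyte markers summed to 3297 to 5192 CPM with Hoil1+/+ and to 471 and 2148 CPM with Hoil1-/-. In Il4ra ΔIEC mice the sums were 1458 to 2176 CPM with Hoil1+/+ and 2428 to 4745 CPM with Hoil1-/-. All 5 of these markers were detected in every library. Epithelial markers summed to 11980 and 13123 CPM in Hoil1-/- Il4ra f/f, but to 1881 to 7012 CPM in Hoil1+/+ Il4ra f/f libraries. The part of these cell types in the differences in Pygm and Gaa was not tested. The ages also differed, at 9.4 weeks in both Hoil1-/- Il4ra f/f libraries and 10.3, 9.0 and 9.1 weeks in the Hoil1+/+ libraries 6, 7 and 8. In Hoil1+/+ Il4ra ΔIEC mice the libraries 9 and 10, at 9.7 weeks, had 12029 and 9951 CPM of epithelial markers, and library 11, at 9.0 weeks, had 3124 CPM. With age in the fit the Il4ra f/f values were -2.69 for Pygm (adjusted p = 0.277) and -1.28 for Gaa (adjusted p = 0.258). Markers of striated muscle, for which the muscle isozyme is named, summed to 0.159 to 29.4 CPM over 4 genes in CD45- libraries, with at most 2 of the 4 detected. The 2 Hoil1-/- Il4ra f/f libraries also had the highest Pygl of CD45- cells, at 17.5 and 48.3 CPM, and the highest tuft cell marker sums, at 481 and 658 CPM beside 25.2 to 58.6 CPM in the other 9 libraries. Among CD45- libraries of the sample list, these 2 also had the highest goblet (29752 and 45628 CPM) and eosinophil (39.5 and 72.7 CPM) marker sums. The same held for mast cell (67.2 and 69.3 CPM) and group 2 innate lymphoid cell (21.2 and 24.8 CPM) markers. Few genes made up these immune sums. In these libraries 1 to 2 of the 4 eosinophil, 1 to 2 of the 4 mast cell and 1 to 3 of the 6 innate lymphoid markers were detected. Siglecf of the eosinophil list and Il17rb of the innate lymphoid list are, per the paper, also expressed on tuft cells. These sums therefore do not show that such immune cells were present. The part of any of these markers or their cell types in the Pygl level was not tested.

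**Figure D4:**
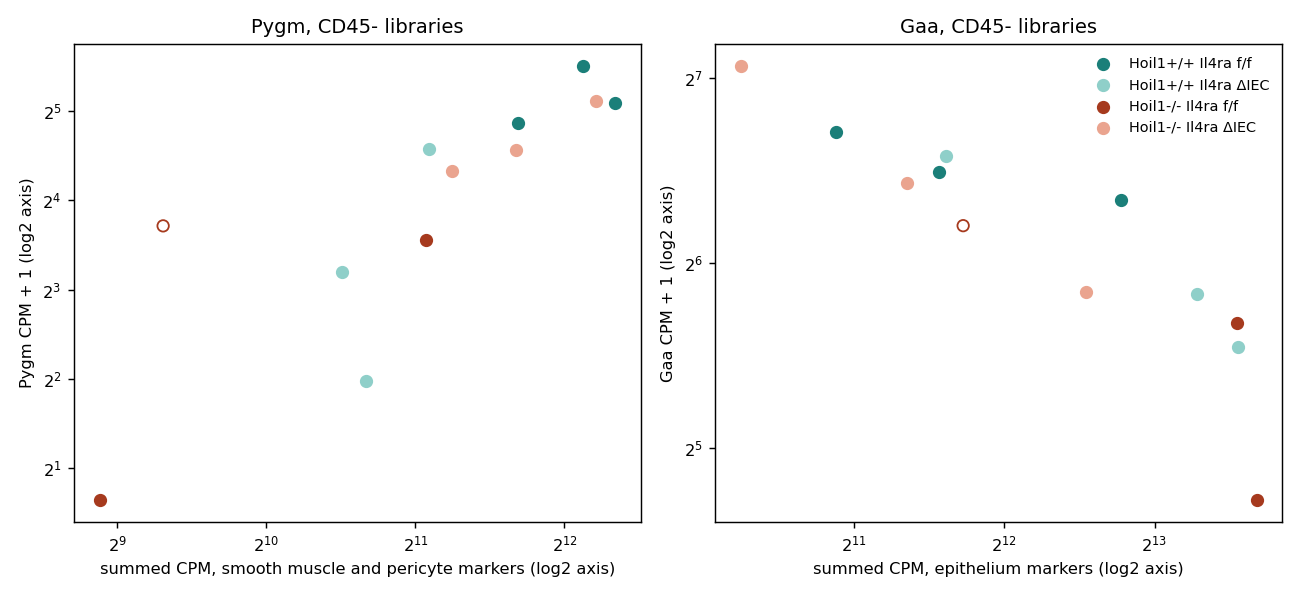
Pygm against the summed smooth muscle and pericyte markers (left) and Gaa against the summed epithelial markers (right) in CD45- libraries, as CPM on log2 axes, with 1 added to the gene's CPM. Points are libraries coloured by genotype, and the open circle is library 23, outside the sample list. Pygm rises and Gaa falls along the x axis, with library 1 at the lower end of both genes.

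The effect of deleting Il4ra in the epithelium, averaged over the Hoil1 genotypes, was tested in the same way. In CD45+ cells none of the 9 genes passed (background 0.00587%), and none had an unadjusted p under 0.05, beside 10.6% of all genes. Pygm came nearest, at 0.809 to 4.84 CPM in the 5 Il4ra f/f and 1.82 to 8.15 CPM in the 5 Il4ra ΔIEC libraries (log2 fold change 1.24, SE 0.56, adjusted p = 0.473). In CD45- cells none passed (background 0%) and none had an unadjusted p under 0.05, beside 5.90% of all genes. Pygl came nearest, at 3.63 to 48.3 CPM in Il4ra f/f and 0 to 9.71 CPM in Il4ra ΔIEC libraries (log2 fold change -1.79, SE 0.82, adjusted p = 0.808). DESeq2 called none of the 8 it could test in CD45+ and none of the 9 in CD45- cells.

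The other genes of the pathway were counted from a list of 45 that supply, regulate or transport glycogen and glucose. Of the 42 that could be tested, 15 were higher and 9 were lower in CD45- cells (backgrounds 25.1% and 24.5% of all genes). Of the subunits that bring protein phosphatase 1 to glycogen, Ppp1r3c was higher in CD45- cells, with a median of 11.5 CPM beside 0.0883 CPM (log2 fold change 5.06, SE 1.02, adjusted p = 0.000542). It had 0 counts in 5 of 10 CD45+ libraries, where a count of 3 was 0.0378 to 0.186 CPM, so the size of this fold is uncertain. Ppp1r3b was lower, with a median of 2.31 CPM beside 24.6 CPM (log2 fold change -3.20, SE 0.42, adjusted p = 8.9e-06). Stbd1, a protein that binds glycogen and membranes, was higher, with a log2 fold change of 2.17 (SE 0.40, adjusted p = 0.000227). The phosphoglucomutase relative Pgm2l1 was lower, with a log2 fold change of -1.64 (SE 0.22, adjusted p = 1.2e-05).

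Of the listed transporters and kinases of glucose, Slc2a1 (log2 fold change 0.07, adjusted p = 0.882) and hexokinase 1 (Hk1; -0.36, adjusted p = 0.296) did not pass, and these names were chosen after their values were seen. The sodium-glucose transporter Slc5a1 had a median of 149.9 CPM in CD45- and 2.67 CPM in CD45+ libraries (log2 fold change 6.01, SE 0.68, adjusted p = 1.9e-06). The glucose transporter Slc2a3 was lower in CD45- cells, with medians of 2.27 and 45.2 CPM (log2 fold change -3.70, SE 0.62, adjusted p = 0.000101). Hexokinase 3 (Hk3) was at 40.2 to 117 CPM in CD45+ libraries and had 0 counts in 9 of 11 CD45- libraries. Slc2a5, a fructose transporter, had 0 counts in 9 of 10 CD45+ libraries and was at 0.279 to 46.0 CPM in CD45- libraries. Prkaa2, a catalytic subunit of the energy sensor AMPK, had 0 counts in 7 of 10 CD45+ libraries, and its median in CD45- libraries was 8.83 CPM. Slc2a2, a glucose transporter, and G6pc, the catalytic subunit of glucose-6-phosphatase, had 0 counts in 7 and 6 of 10 CD45+ libraries and medians of 3.97 and 2.25 CPM in CD45- libraries. For these last genes no fold is given, because at least 1 genotype of a fraction had 0 counts in all its libraries.

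With Hoil1, none of the 40 listed genes tested in CD45+ cells and none of the 42 tested in CD45- cells passed. The backgrounds were 0.00587% and 0.0182% of all genes. At an unadjusted p under 0.05 there were 0 in CD45+ and 1 in CD45- cells, Hk3, whose CD45- counts were mostly 0. Beside these stood 5.85% of all genes in CD45+ and 5.28% in CD45- cells. The median log2 fold change of the list was -0.09 in CD45+ and -0.03 in CD45- cells, beside -0.05 and -0.08 for all genes.

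**Figure D5:**
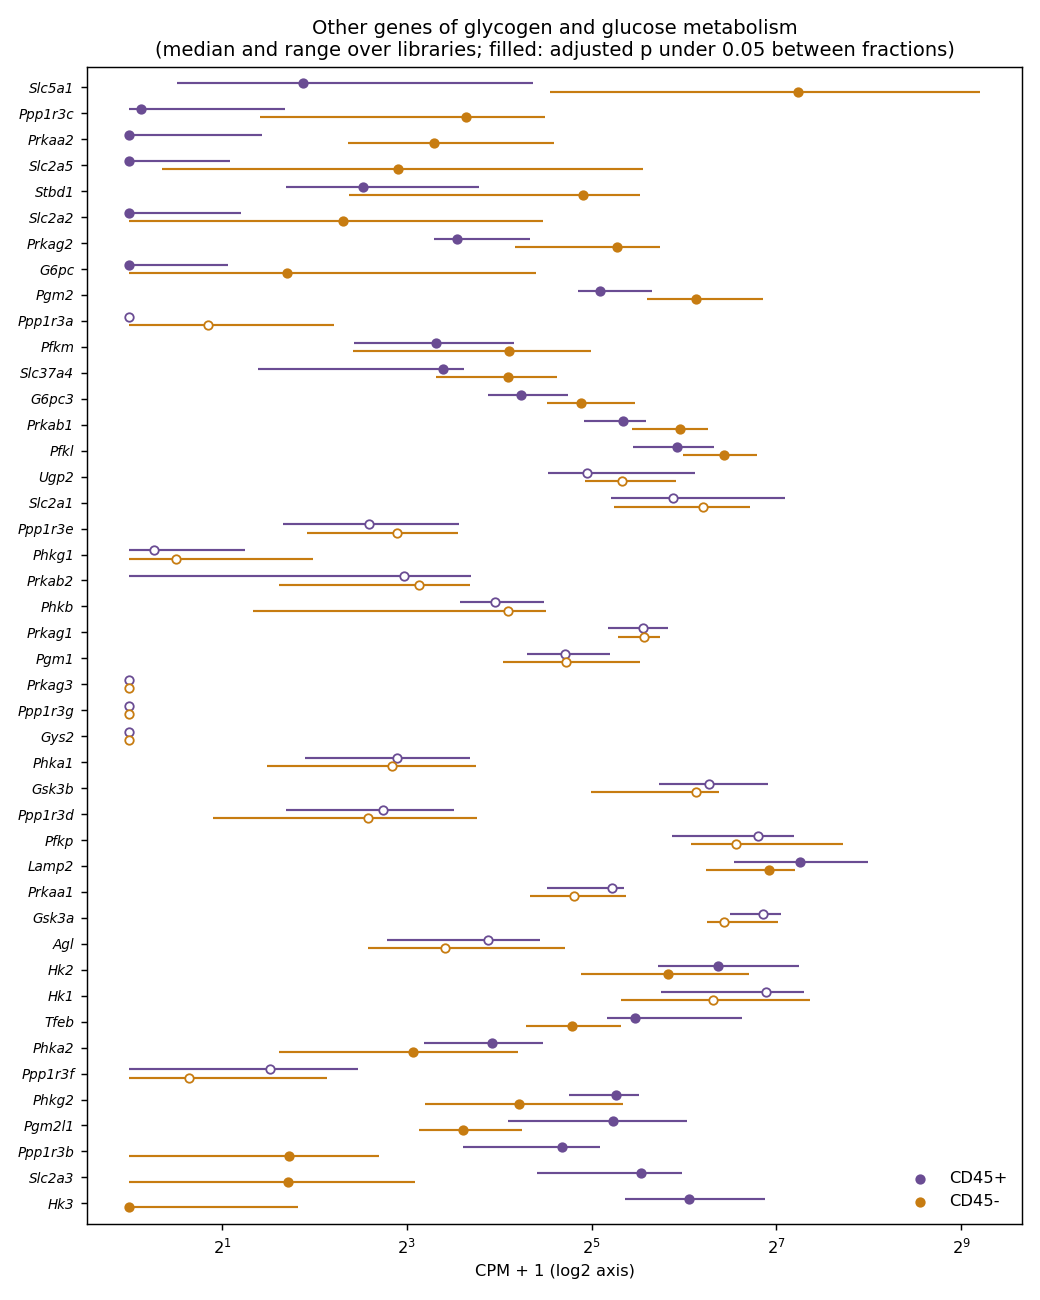
CPM + 1 on a log2 axis of all but 1 of the 45 other listed genes in CD45+ and CD45- cells, as the median (point) and the range over the libraries of the sample list (line). Filled points passed an adjusted p of 0.05 between the fractions. Genes are ordered by the difference of their medians, from Slc5a1 at the top to Hk3 at the bottom.

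The genes most like each member across all 12 libraries of a fraction were also found, by Spearman's rho over 16060 genes in CD45+ and 15332 in CD45- cells. In CD45- cells Pygm was most like Crtc3 (rho = 0.97) and Mapkapk2 (0.96), and Gaa was most like Pitpnm2 (0.98) and Hdac7 (0.97). The nearest to Gyg were Lims1 (0.97) and Ank2 (0.96), and to Pygb Acvr1 (0.96) and Iqgap1 (0.95). In CD45+ cells Pygl was most like Acod1 (0.94), a gene of activated macrophages, and Rnf150 (0.90). Gys1 was most like Hibch (0.95) and Ffar4 (0.94), and Gaa most like Nrg2 (0.90) and Lrrc63 (0.88). With 12 libraries and this many genes, coefficients of this size describe these libraries only.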

How the data were processed

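From 10 to 20 ng of RNA per sample, poly-A libraries were made with 16 cycles of PCR and no molecular identifiers. The raw counts deposited by the authors for 24 libraries came from featureCounts on ENSEMBL gene models, after adapter trimming (cutadapt) and alignment by STAR to mm10, and were not normalized. Tool versions and the strand and multi-mapping options of the counting are not given in the sources used here. Since PCR copies were not told apart, floors cover counting error only.

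Counts were tested with the quasi-likelihood test of edgeR 4.0.16 (R 4.3.3), with TMM scaling, edgeR's filter (minimum count 10, minimum total 15), a mean for each genotype and fraction, 2-sided contrasts and Benjamini-Hochberg adjustment over all genes tested (threshold 0.05). Fractions were compared in 1 fit of 21 libraries and genotypes within each fraction (10 CD45+ and 11 CD45- libraries). The standard error is the log2 fold change divided by the square root of the F statistic. The libraries 13, 23 and 24 are outside the study's sample list. Per the methods, mice of each data set came from more than 1 litter, but which libraries share a litter or a sort is not given, so p-values measure the spread between these samples. CPM use 1 TMM scaling over all 24 libraries, and lengths are the union of exons in GENCODE M21 (38872 of 39056 identifiers matched). Relations with marker sums used 100000 permutations (2-sided) of log2(CPM + 1) and scipy 1.17.1 in Python 3.11.15. The fits were also run on simulated counts, in which the libraries did not differ in cell types, unlike the CD45- libraries here.

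The genes named are the 9 members, Rbck1, listed pathway genes past the threshold between fractions (at most 12 by size), those at an unadjusted p under 0.05 for Hoil1 (at most 6 per fraction), and at most 2 most similar genes per member. Of the listed pathway genes, 1 is not reported here by name. Members and lists were chosen with earlier results of these data known. Alternatives were all 24 libraries, RLE size factors, no filter, DESeq2 1.42.0, the likelihood ratio test, removal of immunoglobulin genes, each Hoil1 genotype alone, leaving out each library and, chosen after seeing the data, age in weeks as a linear covariate and, between fractions, genotype and age as a block. Plots used matplotlib 3.10.9.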

Additional observations from a re-analysis of the deposited data

Results flagged for a closer look

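Each gene was examined for a library far from the others of its fraction and Hoil1 genotype, in 36 groups of 4 to 6 libraries, of which chance would give about 1 in 20. In 1 group a library stood apart. Gbe1, the branching enzyme, was at 17.5 CPM in the CD45- library 1 (Hoil1-/- Il4ra f/f), and the next highest of the 5 CD45- Hoil1-/- libraries was at 5.99 CPM. The gap was 0.795 of the range of the group. The same library had the lowest Pygm and Gaa of CD45- cells and the highest sum of epithelial markers, at 13123 CPM, and the part of these in the Gbe1 level was not tested. Without it the averaged Hoil1 effect on Gbe1 in CD45- cells was -0.12 in place of 0.53 (log2).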

How the results depend on the processing

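Besides leaving out libraries, the alternatives gave 478 values. Of these, 353 for single genes kept their direction and side of the threshold. A further 108 were counts of called genes that equalled or were near the main count, whichever genes passed. Within Hoil1-/- mice alone 1 of the 9 genes passed between the fractions, in place of 4, on fewer libraries. With DESeq2, 2 passed the interaction in CD45- cells, in place of 0, and the cause was not tested. DESeq2 moved the median log2 difference between the fractions over all genes from -0.03 to 0.08. With all libraries of a fraction, the sign turned for Gys1 (-0.27) and Gyg (0.090) in the averaged Hoil1 effect in CD45- cells and for Gyg (-0.39) in the Il4ra effect there, and the 3 values did not pass. The added library 23 has 0 counts of Gys1 and the highest Gyg of CD45- cells. Leaving out each library in turn, 3 to 5 of the 9 genes passed between the fractions, 0 to 1 in CD45- cells for Hoil1 in Il4ra f/f, and 0 to 1 for the interaction. None of the signs that turned with 1 library left out belonged to a called value. For the Hoil1 effect the log2 ranges were -0.15 to 0.27 (Pygl), -0.21 to 0.57 (Pygm) and -0.19 to 0.099 (Gaa) in CD45+ cells, and -0.27 to 0.21 (Gys1), -0.12 to 1.01 (Gbe1) and -0.41 to 0.065 (Epm2a) in CD45- cells. For the Il4ra effect they were -0.44 to 0.14 (Gys1), -0.29 to 0.41 (Nhlrc1) and -0.28 to 0.0046 (Pygb) in CD45+ cells, and -0.14 to 0.41 (Gyg), -0.71 to 0.019 (Nhlrc1) and -0.25 to 1.92 (Pygm) in CD45- cells. With age as a covariate, chosen after seeing the data, the sign turned for Gaa in CD45+ (0.023) and Gys1 in CD45- cells (-0.011) for Hoil1, and neither passed. No paired analysis was possible because the library numbers are unique and no label names the mouse. Ages match in part across the fractions of a genotype, and with genotype and age as a block 5 of the 9 genes passed between the fractions, in place of 4. With 2 to 3 libraries per group and levels near 1 CPM, small changes in Epm2a and Nhlrc1 were not detectable.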
